A study of Mus musculus with 4 samples.

Results

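The 6 mRNAs described here are the mitochondrially encoded messages for respiratory complexes III, IV and V. They are mt-Cytb of complex III, mt-Co1, mt-Co2 and mt-Co3 of complex IV, and mt-Atp6 and mt-Atp8 of complex V. They were taken by gene symbol and are 6 of the 32285 genes in the count matrices. The data came from droplet 3′ single-cell RNA-seq of mouse kidneys, with 1 library for each of 4 samples. The mutant group held 2 mice carrying a mutated trnE, which the annotation calls mt-Te and which makes glutamate's transfer RNA in mitochondria. It is a point mutation, at loads of 79% (mutant 1) and 76% (mutant 2). The other group held 2 wild-type C57BL/6J mice (wild type 1 and wild type 2). All 4 kidneys were digested with Liberase, and viable cells were sorted with a viability dye before poly(A) RNA was captured. The load is a single value per mouse, and no load for a cell class was analysed here.

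Mitochondrial DNA is copied into long RNAs that are cut mostly at the transfer RNAs lying between the messages, so the messages start out together and differ afterwards in processing and decay. Cytochrome b is the mitochondrially made subunit of complex III, which passes electrons to cytochrome c. Cytochrome c oxidase, or complex IV, hands those electrons to oxygen through a core built of the mt-Co1, mt-Co2 and mt-Co3 proteins. ATP synthase, or complex V, uses the proton gradient to make ATP, and its membrane part holds the mt-Atp6 and mt-Atp8 proteins. The transfer RNA of glutamate reads the codons GAA and GAG in all 13 mitochondrial messages. Kidney tubules reabsorb salt and solutes at a high cost in ATP and are among the tissues richest in mitochondria.

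The sequences below are background, read from the GRCm38 transcripts of GENCODE M21, and no share or test was computed from them. The first is the transfer RNA itself, at chrM:14071-14139 on the minus strand, with its anticodon (bases 31 to 33) in capitals, since this is the gene named in the genotype. It is not one of the genes in the matrices, so mt-Te itself was not analysed here. The next 6 are the last 30 bases of each reading frame, all on the plus strand. A poly(A)-primed library begins at the 3′ end of a message, which for each member but mt-Atp8 lies at or near these bases. How far a message runs past its frame was not analysed here. Capitals mark the stop codon, or the part of it that the genome holds.
mt-Te: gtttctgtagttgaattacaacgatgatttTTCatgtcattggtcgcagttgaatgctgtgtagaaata
mt-Cytb: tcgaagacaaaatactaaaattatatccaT
mt-Co1: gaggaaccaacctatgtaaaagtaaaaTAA
mt-Co2: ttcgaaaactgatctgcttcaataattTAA
mt-Co3: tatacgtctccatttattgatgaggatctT
mt-Atp6: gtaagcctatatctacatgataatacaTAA
mt-Atp8: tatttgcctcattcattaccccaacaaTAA
The mt-Cytb end lies at chrM:15259-15288, mt-Co1 at chrM:6843-6872, mt-Co2 at chrM:7667-7696, mt-Co3 at chrM:9361-9390, mt-Atp6 at chrM:8578-8607 and mt-Atp8 at chrM:7940-7969. The mt-Cytb and mt-Co3 frames end in a single T, and their stop codons are completed by the poly(A) tail. The other 4 end in a full TAA.

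The mt-Atp8 and mt-Atp6 frames share 43 bases at chrM:7927-7969 and are carried on 1 joint message. The shared bases are printed because a read from them belongs to both genes, with the mt-Atp6 start codon and the mt-Atp8 stop codon in capitals.
mt-Atp8/mt-Atp6 overlap: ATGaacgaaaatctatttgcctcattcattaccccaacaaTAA
The mt-Atp6 frame runs on to chrM:8607, far downstream of the end of mt-Atp8, so the joint message has its 3′ side in mt-Atp6.

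The 6 messages differ in how often they call for glutamate. Among the 13 messages mt-Co2 had the highest share of glutamate codons, 14 of 227 sense codons (6.17%). The next was a complex I message, mt-Nd3, with 6 of 115 (5.22%). The other members held 9 of 514 in mt-Co1, 7 of 261 in mt-Co3, 6 of 381 in mt-Cytb, 3 of 226 in mt-Atp6 and 1 of 67 in mt-Atp8. The stretch of 150 bases with the most glutamate codons is shown for the richest member and for mt-Atp6, the poorest of the 6 by percentage, with each glutamate codon in capitals.
mt-Co2 stretch: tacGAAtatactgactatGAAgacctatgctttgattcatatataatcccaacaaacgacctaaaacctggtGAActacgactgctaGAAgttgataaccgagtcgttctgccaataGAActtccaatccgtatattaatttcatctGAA
mt-Atp6 stretch: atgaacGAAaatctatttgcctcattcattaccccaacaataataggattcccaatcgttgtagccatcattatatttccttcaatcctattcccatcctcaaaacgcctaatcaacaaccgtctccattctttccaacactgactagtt
The mt-Co2 stretch, chrM:7334-7483, holds 6 glutamate codons. The mt-Atp6 stretch, chrM:7927-8076, holds 1. Whether glutamate codons bear on the shares was not tested.

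Library totals were 65565948 and 70013861 UMIs (unique molecule counts) in the mutants, against 42121175 and 59946996 in the wild types. Filters left 9535 and 8916 cells of the mutants, against 5671 and 6306 of the wild types. No pair of libraries shared more than 0.353% of the smaller one's kept barcodes. The mutant matrices were written by Cell Ranger 7.0.0 and the wild-type matrices by 7.1.0, per the file headers, so version and genotype cannot be told apart. The shares of kept cells differed from library to library: proximal tubule-like cells numbered 2663 and 1248 in the mutants, against 1690 and 3772 in the wild types. In wild type 2 the largest proximal tubule cluster was a shallow cluster led by AY036118 and Gm42418 with 77, 25, 21 and 712 cells in mutant 1, mutant 2, wild type 1 and wild type 2.

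Cell classes were named from marker genes, so each is strictly proximal tubule-like, T cell-like and so on, a suffix left off from here. Of 13 named classes 12 had at least 20 cells in every library, and 6 were tested: the proximal tubule, the distal convoluted and connecting tubule, the thick ascending limb, T cells, B cells and monocytes. The 18 proximal tubule markers summed to 26250 and 32730 CPM in mutant proximal tubule cells and 31780 and 29890 CPM in wild-type ones. Marker CPM are counts scaled to the total UMIs of the class in its library. None of the 18 was at 0. The same markers summed to 880 and 205 CPM in mutant T cells and 316 and 994 CPM in wild-type T cells, with 17 of 18 detected in each library and Slc7a13 at 0 in all 4. Over the 5 other tested classes their sum stayed between 205 and 2234 CPM. How far tubule RNA outside tubule cells enters the members' values was not tested. Clustering without the mitochondrial genes put 99.3% of the cells in the same class. The distal convoluted and connecting tubule class was mixed, and its mixture differed between the groups. In it 8 principal cell markers summed to 3029 and 2941 CPM in the mutants, against 919 and 726 CPM in the wild types. There 10 fibroblast and mural cell markers summed to 1417 and 1059 CPM in the mutants, against 567 and 13.6 CPM in the wild types. How this mixture bears on the class's values was not tested. Different clusters held most of the B cells: 1 cluster had 83.1% of them in mutant 1 and 80.2% in wild type 1, and another had 51.6% in mutant 2 and 93.0% in wild type 2. T cells differed as well. A cluster led by Cd8b1 and Cd8a was their largest in mutant 1 (38.2%), mutant 2 (60.4%) and wild type 1 (55.2%). In wild type 2 the largest was a cluster with Ctla4 and Foxp3 among its leading genes (48.3%).

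Each member's value is its share of all 13 mitochondrial mRNA UMIs in a class of a library, so a share can move because another message moved. Within the proximal tubule the 6 members together made up 77.5% and 74.5% in the mutants, against 76.5% and 73.2% in the wild types. In T cells the sum was 80.4% and 79.4% in the mutants, against 80.6% and 76.9% in the wild types. The groups overlapped in both classes. Counting error was small: the widest 95% Clopper-Pearson interval of a member's share reached 0.0738 points to either side in the proximal tubule and 0.579 points over the 6 tested classes, in B cells. With 2 mice in each group the smallest two-sided exact permutation p is 0.333. Nothing given for the samples says which libraries were made together or what ages and litters the mice had, so the spread between the 2 mice of a group may hold technical differences as well.

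The mt-Cytb share, the mitochondrially made part of complex III, did not separate the groups. Proximal tubule cells had 15.97% and 12.95% in the mutants, against 19.4% and 11.7% in the wild types. The 2 wild types were the highest and the lowest library, and the 2 mutants lay between them. The means were 14.5% ± 2.13 in the mutants, against 15.5% ± 5.45 in the wild types (SD, n = 2 each), a difference of -1.07 points (exact permutation p = 1.0). Leaving out 1 library could turn its sign: it was 0.442 points without mutant 2 and 2.79 points without wild type 1, and -4.92 points without wild type 2.

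The same order of libraries returned in every other class. In T cells mt-Cytb was at 15.97% and 12.9% in the mutants, against 18.8% and 10.2% in the wild types. In B cells it was at 16.5% and 12.6% in the mutants, against 18.7% and 9.66% in the wild types. Among the tested classes it was highest in the distal convoluted and connecting tubule in all 4 libraries, at 18.4% and 14.1% in the mutants, against 21.6% and 13.01% in the wild types. From highest to lowest, the order was wild type 1, mutant 1, mutant 2, wild type 2 in 12 of 12 classes. The gap between the 2 wild types was 6.17 to 10.5 points in these classes, against a mean absolute difference between the groups of 0.618 points.

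Of the complex IV messages, mt-Co2 was the member whose groups separated most often. Its protein carries the copper site that takes electrons from cytochrome c. Proximal tubule cells had mt-Co2 at 15.0% and 13.9% in the mutants, against 12.2% and 13.3% in the wild types. Both mutants were above both wild types, with 0.596 points between mutant 2 and wild type 2. The means were 14.4% ± 0.795 in the mutants, against 12.7% ± 0.757 in the wild types (SD, n = 2 each), a difference of 1.69 points with an exact permutation p of 0.333, the smallest possible here. The difference stayed between 1.13 and 2.26 points when any 1 library was left out.

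Both mutants had a higher mt-Co2 share than both wild types in 5 of the 6 tested classes and in 10 of 12 classes in all. Over the 6 tested classes and all 13 messages the same separation was seen in 8.97% of 78 values upwards and in 14.1% downwards. Over 12 classes it was seen in 9.62% of 156 upwards and 14.1% downwards. The upward values include those of mt-Co2 itself. In the 6 classes the only other message upwards was mt-Nd5, in 2, and in the 12 the others were mt-Nd5 in 3 and mt-Co1 in 2. In T cells mt-Co2 was at 14.0% and 13.8% in the mutants, against 12.4% and 13.6% in the wild types. In the distal convoluted and connecting tubule it was at 13.8% and 13.2% in the mutants, against 11.4% and 12.5% in the wild types. In the thick ascending limb it was at 14.8% and 13.4% in the mutants, against 12.1% and 12.7% in the wild types. Monocytes showed the widest difference of the tested classes, 1.94 points, with 16.2% and 15.95% in the mutants, against 13.9% and 14.4% in the wild types. B cells were the exception among the tested classes: the shares were 14.7% and 14.5% in the mutants, against 12.6% and 14.5% in the wild types, and mutant 2 lay just under wild type 2. The mean difference was positive in each of the 6 classes, at 0.919 to 1.94 points. The libraries also ranked alike within a group, with mutant 1 above mutant 2 and wild type 2 above wild type 1 in 12 of 12 classes.

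mt-Co1 encodes the catalytic subunit that holds the site of oxygen reduction. Its share in the proximal tubule was 14.1% and 13.1% in the mutants, against 13.6% and 11.2% in the wild types. Wild type 2 was low and the other 3 libraries lay close together, so the groups overlapped. The means were 13.6% ± 0.712 in the mutants, against 12.4% ± 1.69 in the wild types (SD, n = 2 each; exact permutation p = 0.667). The difference of 1.21 points came down to 0.0137 points without wild type 2. None of the 6 tested classes separated the groups in mt-Co1, and 2 of 12 did, endothelium and intercalated cells. Wild type 2 had the lowest mt-Co1 share in 11 of 12 classes. In the thick ascending limb, for example, the shares were 17.8% and 15.3% in the mutants, against 16.1% and 12.7% in the wild types.

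mt-Co3, another core subunit of complex IV, was the most abundant of the 6 by share in mutant 1 in the proximal tubule. There it made up 18.2% and 16.3% in the mutants, against 18.4% and 16.8% in the wild types. The groups overlapped, and the difference of -0.340 points was smaller than the gap between the 2 mice of either group. It turned to 0.609 points without mutant 2 and to 0.451 points without wild type 1. In T cells mt-Co3 was at 19.5% and 17.4% in the mutants, against 19.3% and 17.8% in the wild types. The libraries numbered 1 were above the libraries numbered 2 in 12 of 12 classes.

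The 3 complex IV messages summed to 47.2% and 43.2% in the mutant proximal tubule and 44.1% and 41.2% in the wild-type one. In T cells they summed to 49.2% and 47.1% in the mutants, against 47.7% and 45.3% in the wild types. Mutant 2 was below wild type 1 in both of these classes and in the thick ascending limb, so the groups overlapped there. Both mutants were above both wild types in the other 3 tested classes and in 6 of 12 classes in all, beside the 9.62% of single messages given above. In B cells the sum was 50.97% and 48.9% in the mutants, against 48.7% and 47.4% in the wild types. The distal convoluted and connecting tubule had 48.98% and 45.5% in the mutants, against 45.1% and 42.0% in the wild types. Monocytes had 52.9% and 50.3% in the mutants, against 49.9% and 45.2% in the wild types (exact permutation p = 0.333 in each of the 3 classes). The sum includes mt-Co2, so these are not separate results.

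mt-Atp6 encodes the proton channel subunit of ATP synthase and showed the pattern of mt-Cytb turned over. Its proximal tubule share was 14.3% and 18.2% in the mutants, against 12.9% and 20.2% in the wild types. The wild types were again at both ends, this time with wild type 2 highest. The means were 16.2% ± 2.82 in the mutants, against 16.5% ± 5.12 in the wild types (SD, n = 2 each; exact permutation p = 1.0). The difference of -0.293 points turned to 1.70 points without mutant 1 and to 3.33 points without wild type 2, and was -3.92 points without wild type 1. In T cells mt-Atp6 was at 15.2% and 19.4% in the mutants, against 14.0% and 21.3% in the wild types. In monocytes it was at 14.5% and 18.1% in the mutants, against 13.3% and 20.6% in the wild types. The libraries numbered 1 were below the libraries numbered 2 in 12 of 12 classes, and the full order wild type 2, mutant 2, mutant 1, wild type 1 held in 10 of 12.

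mt-Atp8 encodes a small membrane subunit of ATP synthase and was rare in these 3′ libraries. It made up 0.0895% and 0.114% of the proximal tubule pool in the mutants, against 0.0847% and 0.165% in the wild types. Wild type 2 was high and the other libraries overlapped. The difference was -0.0228 points, and 0.0172 points without wild type 2. Proximal tubule cells had 159 and 160 UMIs of mt-Atp6 for each UMI of mt-Atp8 in the mutants, against 152 and 122 in the wild types. Since both genes sit on 1 message and a 3′ library reads its end, these ratios describe where reads fall and not a ratio of messages.

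**Figure D1:**
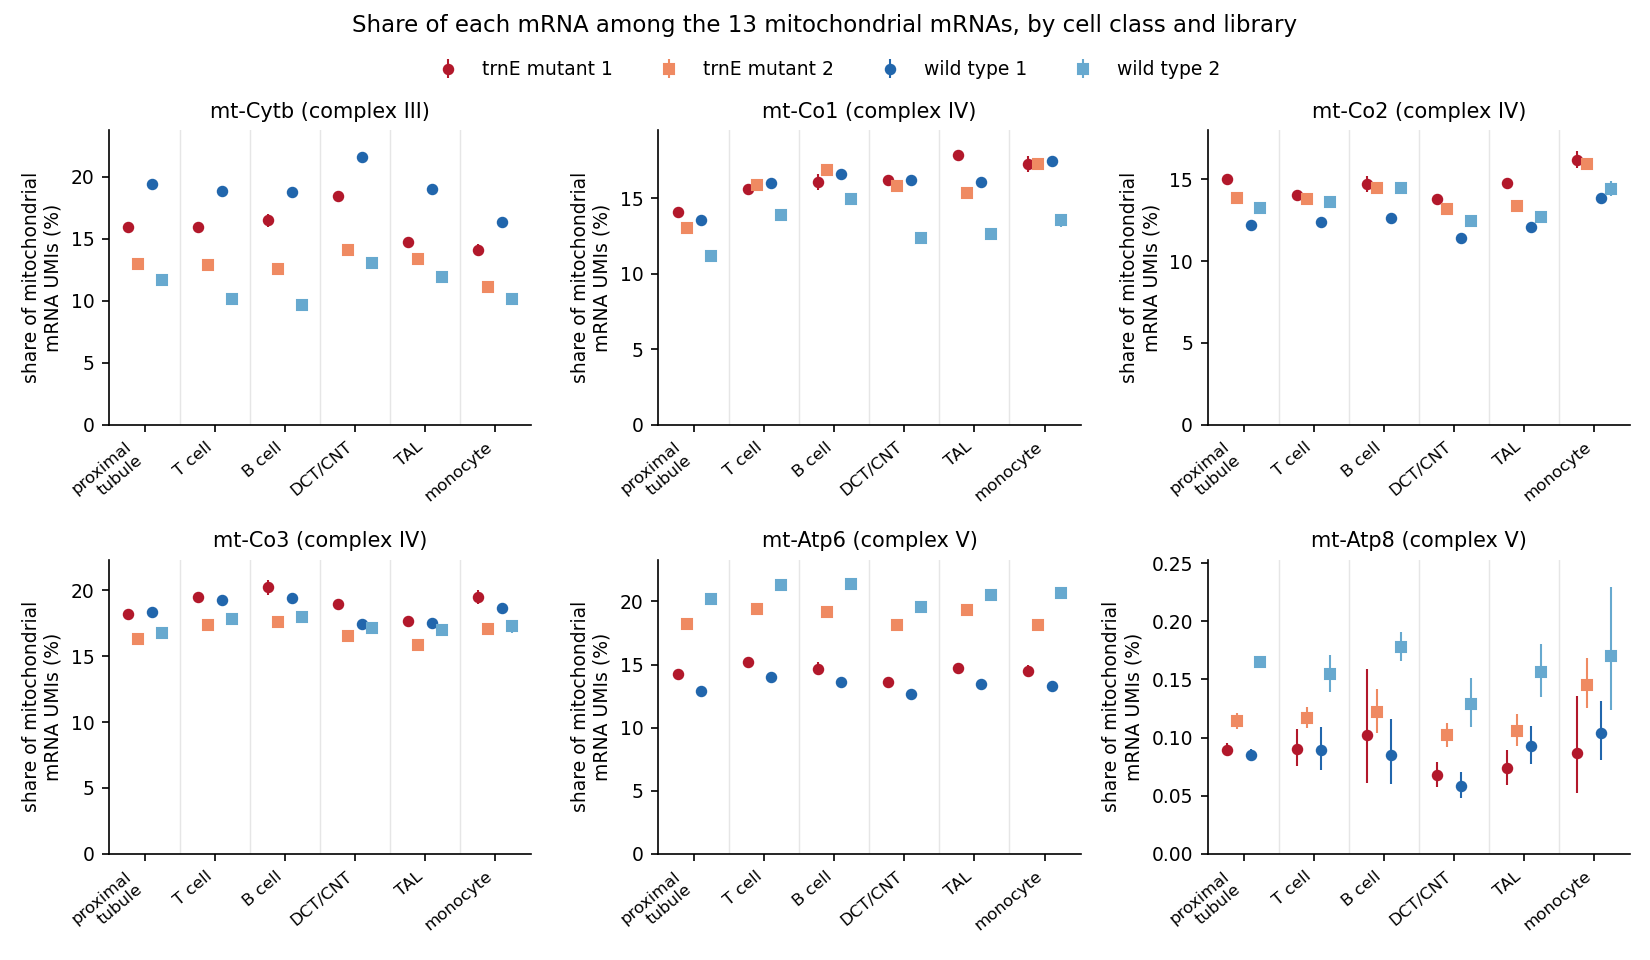
Share of each member among the 13 mitochondrial mRNAs (y axis, percent of mitochondrial mRNA UMIs) in the 6 tested cell classes (x axis; DCT/CNT, distal convoluted and connecting tubule; TAL, thick ascending limb). Points are libraries, mutants left of wild types, and bars are 95% Clopper-Pearson intervals. For mt-Cytb wild type 1 is highest and wild type 2 lowest in each of the 6 classes, while for mt-Co2 both mutants lie above both wild types in 5 of 6 classes.

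mt-Cytb and mt-Atp6 together show how far the libraries stood apart. There were 1.12 and 0.710 mt-Cytb UMIs per mt-Atp6 UMI in the proximal tubule of the mutants, against 1.501 and 0.579 in that of the wild types. Across 12 classes this ratio ran from 0.974 to 1.68 in mutant 1, from 0.607 to 0.774 in mutant 2, from 1.16 to 1.77 in wild type 1 and from 0.427 to 0.666 in wild type 2. The ranges of the libraries numbered 1 therefore did not meet those of the libraries numbered 2 in either group. The mean SD over 4 libraries within a class was 3.62 points for mt-Cytb and 3.47 points for mt-Atp6, against a mean SD over classes within a library of 1.302 and 0.904 points. For mt-Co1 these were alike, at 1.404 points over libraries and 1.41 points over classes.

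**Figure D2:**
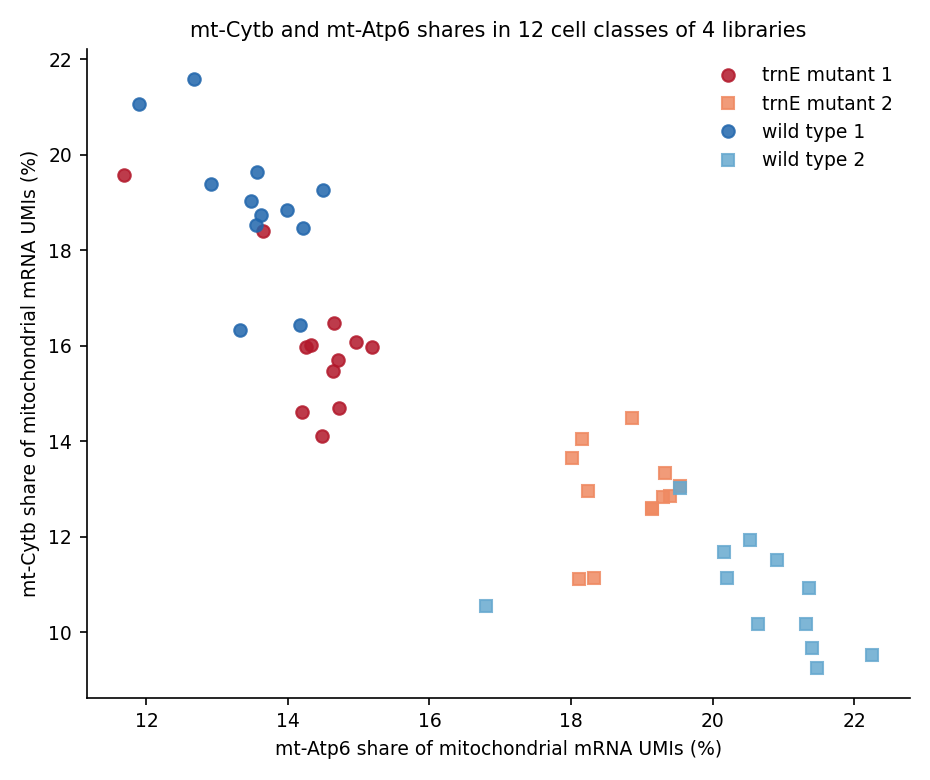
mt-Cytb share (y axis, percent of mitochondrial mRNA UMIs) against mt-Atp6 share (x axis, same unit); each point is 1 of 12 cell classes in 1 library, and both axes start above 0. The points of a library lie near each other, with wild type 1 at the upper left and wild type 2 at the lower right.

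Set against the spread within groups, mt-Co2 was the only member whose mean difference between the groups exceeded the mean gap inside both groups. Over 12 classes the mean absolute difference between the groups was 1.46 points for mt-Co2, against mean gaps of 0.864 points between the mutants and 1.03 points between the wild types. For mt-Co1 it was 1.33 points, against gaps of 0.919 points between the mutants and 2.51 points between the wild types. For mt-Atp6 it was 0.566 points, against gaps of 4.51 points between the mutants and 7.06 points between the wild types. These classes share their libraries and so do not count as 12 separate tests. The ratio of mt-Co2 to mt-Co1 overlapped between the groups in every class.

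**Figure D3:**
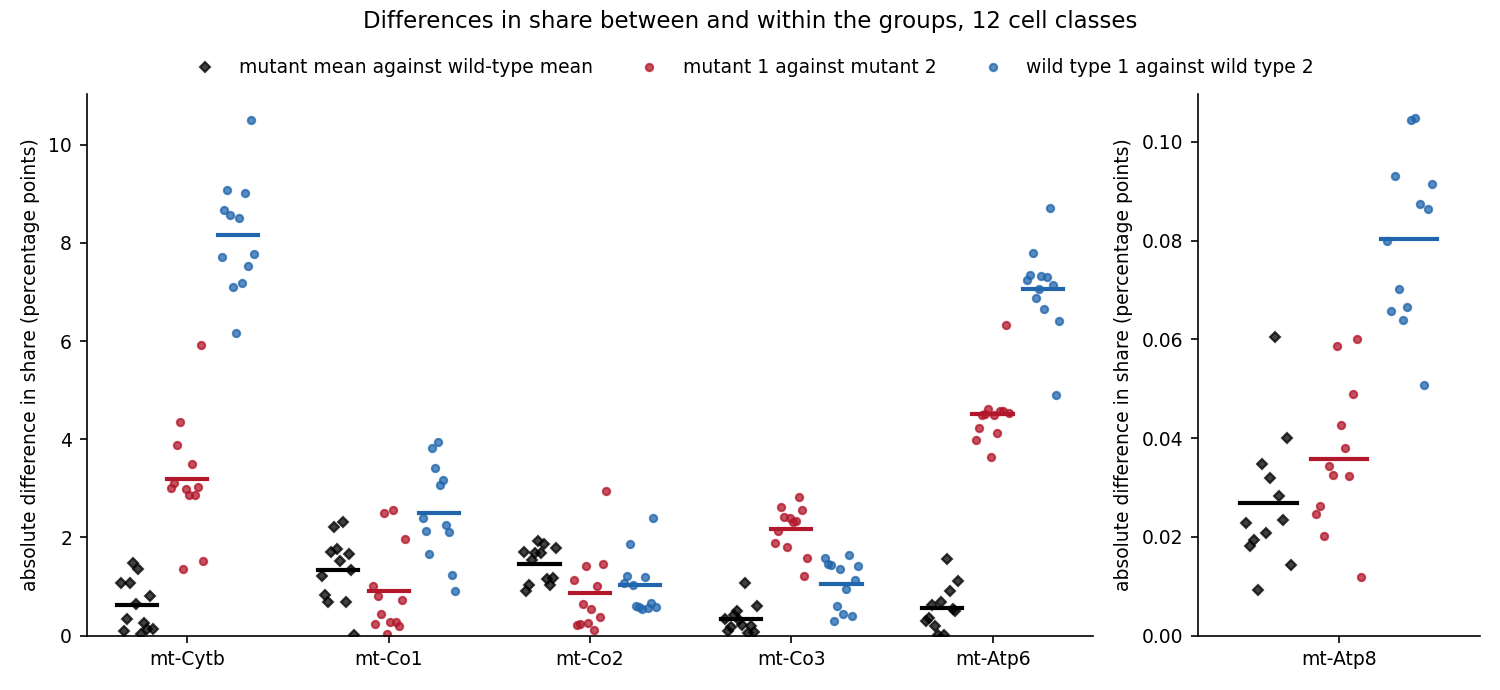
Absolute differences in share (y axis, percentage points; mt-Atp8 on its own scale at the right) for each member: the mutant mean against the wild-type mean, mutant 1 against mutant 2, and wild type 1 against wild type 2. Each point is 1 of 12 cell classes and lines are means, and for mt-Co2 the line of the group difference (1.46) lies above both lines within groups.

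No member passed edgeR's quasi-likelihood test in any tested class, whether each gene was scaled to all UMIs of the class (level) or to its mitochondrial mRNA total (relative). Benjamini-Hochberg adjusted p under 0.05 over all genes was reached by 0 of 6 members in each class, where the same level test called 1.03% of all genes in the proximal tubule, 0.249% in the thick ascending limb, 0.0327% in monocytes, and 0% in T cells, B cells and the distal convoluted and connecting tubule. The relative test called 0% in the proximal tubule, T cells and monocytes, 0.0102% in B cells, 1.05% in the distal convoluted and connecting tubule and 0.368% in the thick ascending limb. Its dispersions draw on all genes scaled to the mitochondrial total, most of them nuclear, so it can miss share differences of the size seen here. No member had an unadjusted p under 0.05, the smallest being 0.22 for the mt-Co2 level in the distal convoluted and connecting tubule by edgeR. DESeq2 called no member either. For all genes in the 3 classes with no level call, edgeR gave 432, 369 and 1635 genes at an unadjusted p under 0.05 in T cells, B cells and the distal convoluted and connecting tubule, and DESeq2 called 5, 0 and 140.

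Of the other 7 mitochondrial messages, all of complex I, 1 passed the same test in 1 class. mt-Nd6, the message encoded on the opposite strand, was lower in the mutants in the distal convoluted and connecting tubule, relative to the mitochondrial total. It made up 0.0165% and 0.0309% of the pool there in the mutants, against 0.0441% and 0.221% in the wild types, and wild type 2 stood far above the rest. The log2 ratio was -2.46 with an SE of 0.68 (edgeR adjusted p = 0.0349), and without wild type 2 it was -0.88 (edgeR adjusted p = 1.0). Leaving out any of the other 3 libraries, the replicate block and DESeq2 each ended the call as well. On the level scale none of the 7 was called by edgeR. mt-Nd3, chosen here after its values were seen, was below both wild types in both mutants in 12 of 12 classes. In the proximal tubule mt-Nd3 was at 0.868% and 0.722% in the mutants, against 1.09% and 2.34% in the wild types.

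The levels show how wide the uncertainty was. mt-Co2 in the proximal tubule stood at 12190 and 27660 CPM (TMM-scaled) in the mutants, against 17340 and 12650 CPM in the wild types. Mutant 2 was highest and mutant 1 lowest, so the mutants spanned the wild types. The log2 fold change was 0.41 (SE 0.82, 95% interval -1.19 to 2.01, adjusted p = 0.859 by edgeR). mt-Cytb stood at 12980 and 25840 CPM in the mutants, against 27550 and 11130 CPM in the wild types, a log2 fold change of 0.0053 with an SE of 0.85 (edgeR adjusted p = 0.999). Over the 6 members the proximal tubule log2 fold changes ran from 0.0053 to 0.41, with a median of 0.25 beside 0.02 for all genes tested. In T cells their median was 0.06 beside 0.0047 for all genes, and in monocytes it was -0.22 beside 0.01, with 0 of 6 positive. Relative to the mitochondrial total, the mt-Co2 log2 fold change was 0.18 in the proximal tubule (SE 0.63) and 0.10 in T cells (SE 0.39). These SEs draw on the spread of all genes scaled to that total and are not the spread of the shares themselves. The test of a difference in response between proximal tubule and T cells gave no member an adjusted p under 0.05 by edgeR, where it called 0% of all genes on the level scale (747 at an unadjusted p under 0.05) and 0.0138% on the relative scale. On the level scale the members' interaction terms ran from -0.08 to 0.12 in log2.

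The members together ranged widely over cell classes. As a share of all UMIs they were highest in the thick ascending limb, 14.6% ± 3.43 (SD, n = 4 libraries), then 9.46% ± 2.69 in the proximal tubule, 9.26% ± 2.38 in the distal convoluted and connecting tubule and 6.22% ± 2.62 in intercalated cells. Below them came B cells at 2.94% ± 0.750, NK cells at 2.80% ± 0.220, T cells at 2.72% ± 0.338, endothelium at 2.45% ± 0.371, macrophages at 2.40% ± 0.731, monocytes at 2.15% ± 0.518, dendritic cells at 1.74% ± 0.401 and plasma cells at 1.44% ± 0.388. Ranges over libraries overlapped between each pair of neighbours in this order except intercalated cells and B cells. Proximal tubule cells held 6.36% and 12.7% in the mutants, against 10.2% and 8.53% in the wild types, a difference of 0.178 points (exact permutation p = 1.0). A proximal tubule cluster led by Npl and Gatm had a median of 0.84% mitochondrial UMIs. It held 1217 of 2663 and 323 of 1248 proximal tubule cells in the mutants, against 428 of 1690 and 381 of 3772 in the wild types. How far such differences in cell make-up set the levels was not tested. In the thick ascending limb the members held 12.4% and 18.0% in the mutants, against 16.9% and 10.9% in the wild types, again with overlap. Of the 12 classes, intercalated cells and dendritic cells were those whose groups did not overlap, with lower values in the mutants. How often all genes separated in this way in these classes was not analysed. Intercalated cells held 4.18% and 4.36% in the mutants, against 6.52% and 9.82% in the wild types (exact permutation p = 0.333). These came from 153 and 103 intercalated cells in the mutants, against 66 and 37 in the wild types. The 18 proximal tubule markers summed to 827 and 364 CPM in mutant intercalated cells, against 501 and 4408 CPM in wild-type ones. The high value is that of wild type 2, and how far tubule RNA entered its level was not tested. Dendritic cells held 1.24% and 1.66% in the mutants, against 1.87% and 2.20% in the wild types (exact permutation p = 0.333). Barcodes over 50% mitochondrial UMIs were left out of these levels and were 16.8% and 13.3% of mutant barcodes and 24.1% and 11.2% of wild-type barcodes.

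Within the mitochondrial pool, mt-Co1 was the member that set the proximal tubule apart from the other tested classes, though not from all 12. Its share there was lower than in each of the 5 other tested classes in 4 of 4 libraries. Against T cells the difference was -1.57 and -2.81 points in the mutants, against -2.45 and -2.71 points in the wild types, with a mean of -2.38 ± 0.562 (SD, n = 4). Against B cells it was -2.003 and -3.82 points in the mutants, against -3.07 and -3.80 points in the wild types. The mean was -2.19 points against the distal convoluted and connecting tubule, -2.51 against the thick ascending limb and -3.44 against monocytes. Each gives an exact sign-flip p of 0.125, the smallest that 4 libraries allow, and 0.188 after Benjamini-Hochberg adjustment over the 30 comparisons of 6 members with 5 classes. With the library as a block and the mitochondrial total as library size, edgeR put mt-Co1 lower in the proximal tubule than in B cells by a log2 ratio of -0.32 (SE 0.09, adjusted p = 0.00954). Against B cells the complex I messages mt-Nd1, mt-Nd2, mt-Nd3, mt-Nd4l and mt-Nd4 passed as well. They were higher in the proximal tubule, by log2 ratios from 0.29 (mt-Nd4) to 0.62 (mt-Nd4l). The other 4 mt-Co1 comparisons missed the threshold by edgeR, with -0.34 against monocytes (adjusted p = 0.0661) and -0.25 against T cells (adjusted p = 0.106). That test called 85.6% of all genes against B cells, 88.4% against T cells, 85.4% against monocytes, 50.3% against the distal convoluted and connecting tubule and 44.6% against the thick ascending limb, so a call there is common. The 18 proximal tubule markers summed to 1146 and 520 CPM in mutant B cells and 401 and 886 CPM in wild-type B cells, with 16 to 18 detected and none at 0 in all 4 libraries. The classes were formed from the same cells' expression. This comparison between classes was not repeated on the classes formed without mitochondrial genes.

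The other members had smaller class differences. mt-Co3 was lower in the proximal tubule in 4 of 4 libraries against T cells (mean -1.10 points), B cells (-1.40) and monocytes (-0.690). mt-Atp6 was lower in 4 of 4 against T cells (-1.08), B cells (-0.817) and the thick ascending limb (-0.628), and higher in 4 of 4 against the distal convoluted and connecting tubule (0.385). mt-Cytb was lower in 4 of 4 against the distal convoluted and connecting tubule (-1.77) and higher in 4 of 4 against monocytes (2.07) and T cells (0.538, with 0.00332 points in mutant 1). mt-Atp8 was lower in 4 of 4 against B cells (-0.00836) and higher in 4 of 4 against the distal convoluted and connecting tubule (0.0240). mt-Co2 was higher in 4 of 4 against the distal convoluted and connecting tubule (0.869) and the thick ascending limb (0.349) and lower against monocytes (-1.53). None of these passed the adjusted threshold by edgeR, and none can pass it in the sign-flip test.

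**Figure D4:**
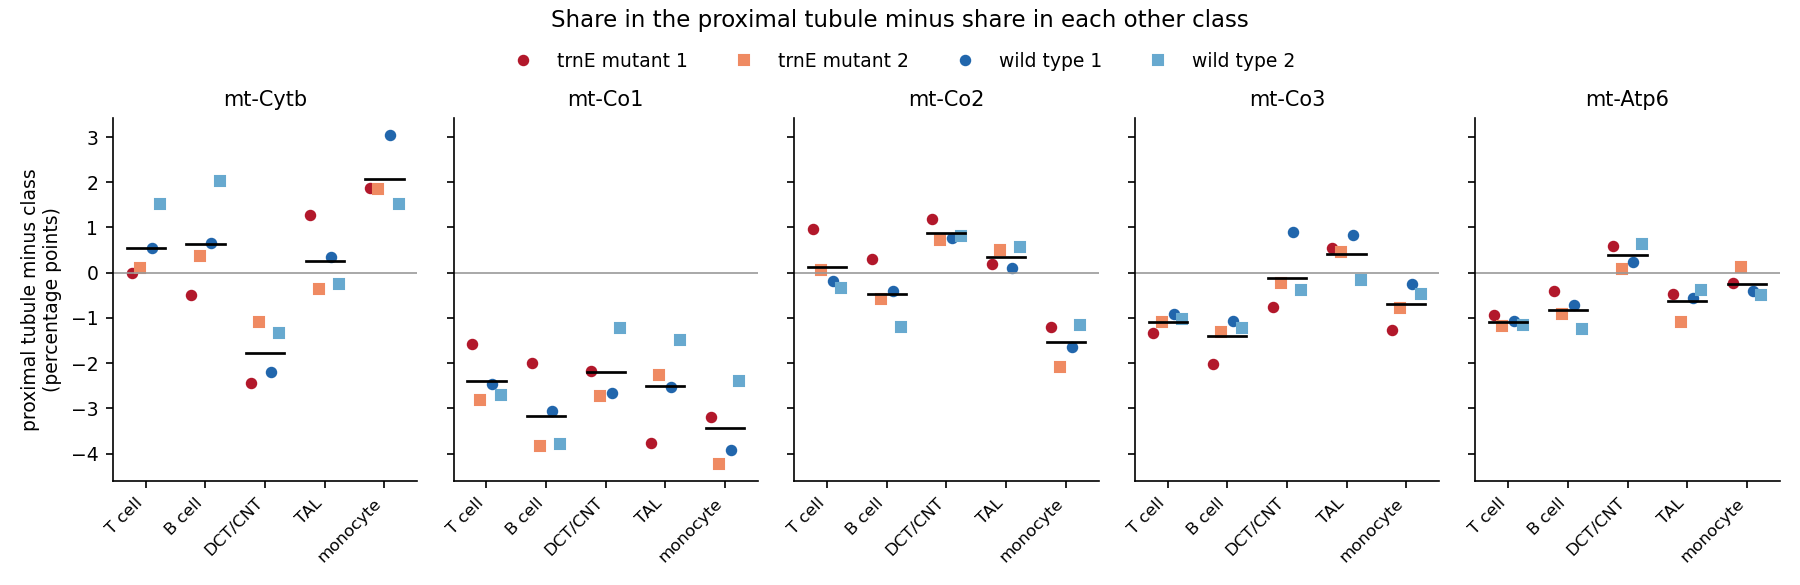
Share of 5 members in the proximal tubule minus that in each other tested class of the same library (y axis, percentage points; x axis, class; mt-Atp8 not drawn). Points are libraries, mutants left of wild types, and lines are means; for mt-Co1 every point lies below 0.

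Centred on each library's mean over 12 classes, mt-Co1 was lowest in the proximal tubule, by -1.92 ± 0.44 points (SD, n = 4). Intercalated cells (-1.66 ± 0.61), endothelium (-1.33 ± 0.27) and plasma cells (-1.07 ± 1.27) came next. By share, mt-Co1 was lowest in plasma cells in mutant 1 (12.8%) and in intercalated cells in wild type 1 (13.2%). Centred in the same way, mt-Co1 was highest in dendritic cells, by 1.77 ± 1.20. mt-Cytb was highest in the distal convoluted and connecting tubule, by 2.09 ± 0.641 points, and lowest in dendritic cells, by -1.82 ± 0.475. mt-Co2 was lowest in the distal convoluted and connecting tubule, by -1.22 ± 0.0972 points, with little spread between libraries. mt-Atp6 was lowest in intercalated cells, by -2.19 ± 1.28 points. These deviations are over classes chosen by clustering all genes and carry no test.

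Within the proximal tubule, 8 clusters had at least 20 cells in every library. The 2 wild types kept apart in them for mt-Cytb and mt-Atp6, while the ranges of some other libraries overlapped. mt-Cytb ran from 14.9% to 17.2% over these clusters in mutant 1 and from 12.5% to 15.3% in mutant 2. It ran from 18.2% to 21.4% in wild type 1 and from 11.3% to 12.2% in wild type 2. mt-Atp6 ran from 13.6% to 14.7% and from 17.2% to 18.6% in the mutants and from 12.2% to 13.6% and from 19.2% to 21.0% in the wild types. The spread among clusters of a library was thus below the gap between the wild types for both messages. mt-Co2 ran from 14.4% to 15.7% and from 13.4% to 14.5% in the mutants and from 11.5% to 12.6% and from 12.9% to 14.2% in the wild types. Both mutants were above both wild types for mt-Co2 in 6 of the 8 clusters, for mt-Co1 in 2 and for the other members in 0. The same count was not made for the complex I messages or for all genes, so these counts have no background beside them. The clusters share their libraries, so these are not separate tests.

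The share of mt-Co1 was also lower in barcodes of the highest mitochondrial content than in those of the lowest. In barcodes under 10%, 10 to 25%, 25 to 50%, 50 to 80% and from 80% mitochondrial UMIs, the first and last values were 15.7% and 12.8% in mutant 1 and 16.8% and 12.2% in mutant 2. They were 16.4% and 13.05% in wild type 1 and 13.2% and 9.44% in wild type 2. The lowest bin was above the highest bin by 2.88 and 4.55 points in the mutants, against 3.30 and 3.77 points in the wild types. No other member moved one way in all 4 libraries by more than 1 point between these bins. The bins mix cell classes, and the classes differ in mitochondrial content.

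Among kept proximal tubule cells alone, mt-Co1 was lower at 25 to 50% than under 10% mitochondrial UMIs by smaller amounts, 0.185 and 0.463 points in the mutants, against 0.283 and 1.02 points in the wild types. mt-Co2 moved the other way there. It was higher at 25 to 50%, with 15.4% and 14.0% in the mutants, against 12.3% and 13.4% in the wild types, than under 10%, with 14.4% and 13.3% in the mutants, against 11.9% and 12.9% in the wild types. In both of these bins mutant 1 was highest and wild type 1 lowest, as in the class as a whole. These trends were described and not tested.

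**Figure D5:**
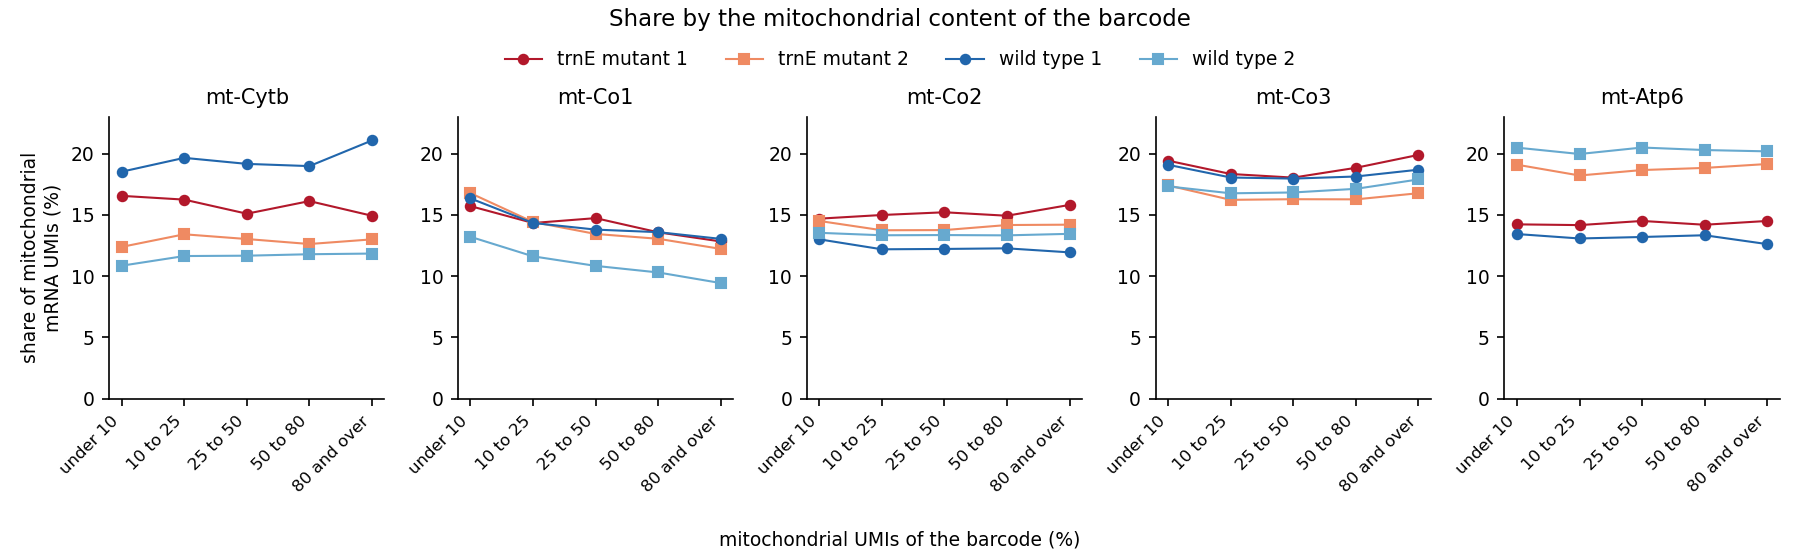
Share of 5 members (y axis, percent of mitochondrial mRNA UMIs) in all barcodes of at least 500 UMIs, grouped by the percent of their UMIs that are mitochondrial (x axis; mt-Atp8 not drawn). Lines join the 4 libraries; mt-Co1 is lower in the last bin than in the first in each library, down to 9.44% in wild type 2, with a rise between the second and the third bin in mutant 1, and the libraries keep their order for mt-Cytb and mt-Atp6.

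Nuclear DNA holds copies of these messages that could take up reads. A search among the GENCODE M21 genes with Gm symbols found 8 pseudogenes that share long stretches with a member. They lie on chromosomes 1, 2, 4 and 11. Copies under other names and shorter matches were not searched for. On chromosome 1, Gm10925 matches mt-Atp6 at 678 of 678 bases, Gm28437 matches mt-Co3 at 783 of 783 and Gm28661 matches mt-Co2 at 681 of 681. Gm29216, also on chromosome 1, matches mt-Co1 at 482 of 483 bases. Gm11410 on chromosome 4 is 92.9% identical to mt-Cytb. None of the 8 is a gene of the matrices, and how reads shared with them were counted is not given in the sources used here, so the 4 members with near-identical copies carry that uncertainty.

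The nuclear-encoded partners of these complexes gave no calls. In the proximal tubule 0 of 9 complex III, 0 of 13 complex IV and 0 of 17 complex V nuclear subunits passed the level test by edgeR in either direction, and 9, 13 and 17 of them had a positive log2 fold change. Their medians were 0.50, 0.47 and 0.50, beside 0.02 for all genes and 0.25 for the 6 members. In T cells 0 of 9, 0 of 12 and 0 of 17 passed, with medians of 0.56, 0.50 and 0.58 beside 0.0047 for all genes. In the distal convoluted and connecting tubule none passed, and medians were -0.07, -0.16 and -0.12, with 1 of 9, 4 of 13 and 6 of 17 positive. Of 30 assembly factors and 24 genes of mitochondrial transcription, RNA processing and mRNA stability tested in the proximal tubule, 0 passed, with medians of 0.27 and 0.14.

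Wild type 2 was the lowest library for each of the genes with the smallest p in these lists in the proximal tubule. Cyc1, which encodes cytochrome c1 of complex III, was at 531 and 671 CPM in the mutants, against 556 and 235 CPM in the wild types (log2 fold change 0.60, SE 0.55). Cox5b, a complex IV subunit, was at 1708 and 1778 CPM in the mutants, against 1603 and 613 CPM in the wild types. Atp5b, the catalytic beta subunit of ATP synthase, was at 1692 and 2587 CPM in the mutants, against 1738 and 806 CPM in the wild types. Mutants and wild types overlapped for Cyc1 and Atp5b, and the mutants were above both wild types for Cox5b. Such separation upwards in CPM was seen in 21.9% of all genes tested in the proximal tubule. In T cells Atp5h, a stalk subunit of ATP synthase, was at 1004 and 664 CPM in the mutants, against 558 and 369 CPM in the wild types (log2 ratio 0.85 with an SE of 0.39, adjusted p = 0.749 by edgeR). Hsd17b10, a subunit of the enzyme that cuts the 5′ ends of mitochondrial transfer RNAs, was at 109 and 78.0 CPM in mutant T cells and 62.3 and 48.9 CPM in wild-type T cells (log2 ratio 0.75 with an SE of 0.31, adjusted p = 0.749 by edgeR). The mutants were above both wild types for both genes in T cells, as were 20.1% of all genes tested there.

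Of 5504 non-mitochondrial genes, the 5 whose level most resembled the summed members over the 24 sums of 6 classes in 4 libraries were Got2, Sdha, Trap1, Atp5a1 and Baiap2l2. Their Pearson r on log2 levels was 0.963, 0.951, 0.950, 0.949 and 0.948. The points share libraries and cell classes, so r is a description. Got2, mitochondrial aspartate aminotransferase, averaged 145 CPM in the thick ascending limb, 114 CPM in the proximal tubule and 34.6 CPM in monocytes. Sdha, the flavoprotein subunit of complex II, averaged 362, 320 and 90.9 CPM in the same classes.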

How the data were processed

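The members and the gene lists were chosen with earlier results of these data known. The authors deposited filtered count matrices of UMIs, 1 per sample, which the file headers give as output of Cell Ranger 7.0.0 (mutants) or 7.1.0 (wild types). The build was mm10 per the submitters' processing notes, and annotation release and counting settings were not stated in any source used here. Samples were grouped by their titles.

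Barcodes with at least 500 UMIs, at least 200 genes and at most 50% mitochondrial UMIs were kept, and Scrublet doublet calls (97 to 239 per library) were removed. Cells were clustered with scanpy 1.11.5 (2000 variable genes, 30 principal components, 15 neighbours, Leiden resolution 1) and named from markers, needing at least 3 of them. Raw counts were summed per library and class. A share is a member's sum over that of the 13 mitochondrial mRNAs, with 95% Clopper-Pearson intervals that cover counting error only. Groups were compared by two-sided exact permutation tests, by edgeR 4.0.16 (quasi-likelihood, TMM scaling, filterByExpr, Benjamini-Hochberg adjustment over all genes, mutant over wild type, and again with the mitochondrial total as library size) and by DESeq2 1.42.0 as an alternative. Classes were compared within libraries. The edgeR fits were tested on simulated data. Genes named beside the members are up to 3 of each list with the smallest p in the proximal tubule or T cells. Of these a few are printed. Complex I messages past a threshold and the 5 genes most alike in level are named too. Library totals ran from 42121175 to 70013861 UMIs.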

Additional observations from a re-analysis of the deposited data

How the results depend on the processing

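No member was called by edgeR or DESeq2 in any of 162 combinations of class, setting and scale. The mt-Co2 difference stayed positive in each tested class under every alternative and without each library (0.101 points at the lowest, in B cells). Of 270 share alternatives 13 turned a sign. With at most 25% mitochondrial UMIs, mt-Cytb in T cells was 0.126, mt-Co3 in T cells 0.0888 and mt-Atp6 in the thick ascending limb -0.361 points. With at most 80%, mt-Co3 in T cells was 0.0263 and mt-Cytb in B cells -0.0119. As a mean over cells, mt-Cytb in T cells was 0.700, mt-Co3 in the distal convoluted and connecting tubule -0.0470 and mt-Atp6 in the thick ascending limb -0.0623. With mt-Co1 and mt-Atp6 left out of the denominator, mt-Cytb and mt-Co3 in T cells were 0.173 and 0.0147, mt-Atp6 in the distal convoluted and connecting tubule 0.221 and mt-Co3 in the thick ascending limb 0.0626. Over all barcodes mt-Atp6 was 0.0402. The cause was not tested.

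Leaving out 1 library turned 44 of 144 share differences. The ranges below are in points. In the proximal tubule mt-Cytb ran from -4.92 to 2.79, mt-Co3 from -1.29 to 0.609, mt-Atp6 from -3.92 to 3.33 and mt-Atp8 from -0.0628 to 0.0172. In T cells mt-Cytb ran from -4.43 to 4.25, mt-Co1 from -0.247 to 1.89, mt-Co3 from -1.17 to 0.961, mt-Atp6 from -4.02 to 3.31 and mt-Atp8 from -0.0510 to 0.0148. In B cells mt-Cytb ran from -4.20 to 4.87, mt-Co1 from -0.143 to 1.52, mt-Co3 from -1.13 to 1.49, mt-Atp6 from -4.51 to 3.28 and mt-Atp8 from -0.0660 to 0.0271. In the distal convoluted and connecting tubule mt-Cytb ran from -5.36 to 3.22, mt-Co1 from -0.195 to 3.62, mt-Co3 from -0.789 to 1.64, mt-Atp6 from -3.63 to 3.24 and mt-Atp8 from -0.0442 to 0.0259. In the thick ascending limb mt-Cytb ran from -5.03 to 2.07, mt-Co3 from -1.42 to 0.400 and mt-Atp6 from -3.51 to 3.55. In monocytes mt-Cytb ran from -3.73 to 2.44, mt-Co1 from -0.201 to 3.73, mt-Co3 from -0.878 to 1.52, mt-Atp6 from -4.35 to 2.98 and mt-Atp8 from -0.0542 to 0.0124.

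Proximal tubule log2 fold changes without 1 library ran from -0.57 to 0.83 for mt-Cytb, -0.38 to 0.85 for mt-Co1, -0.29 to 0.88 for mt-Co2, -0.50 to 0.62 for mt-Co3, -0.68 to 0.95 for mt-Atp6 and -0.91 to 0.72 for mt-Atp8. mt-Cytb was -0.010 with RLE scaling and with DESeq2, -0.0075 with the mitochondrial mRNAs left out of the library size, -0.016 with no filter and -0.16 with library totals. Library totals put mt-Co3 at -0.045 and mt-Atp8 at -0.19 and moved the median of all genes in that class to -0.195.

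Counts of genes called are less stable than the members. In the proximal tubule 137 genes were called, 1 with doublet calls kept, 88 with classes formed without mitochondrial genes, 0 with library totals, 452 with no filter, and 0 to 2729 without 1 library. In T cells 0 were called, 153 with no filter, 5 with DESeq2 and up to 88 without 1 library. In B cells 0 were called, 71 with no filter and up to 222 without 1 library. In the distal convoluted and connecting tubule 0 were called, 799 with no filter, 140 with DESeq2 and up to 51 without 1 library. In the thick ascending limb 21 were called, 8 to 474 under other settings and 4 to 856 without 1 library. In monocytes 3 were called, 1 to 41 under other settings and 18 to 201 without 1 library.

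Nothing given for the samples says that equal replicate numbers pair mice. Same-numbered libraries correlated in their deviations from the group means by -0.367 in the proximal tubule, 0.450 in T cells, 0.415 in B cells, 0.167 in the distal convoluted and connecting tubule, -0.00374 in the thick ascending limb and 0.415 in monocytes. With 2 pairs this does not establish pairing, and they were not treated as pairs. With a replicate block the level test called 263 genes in the proximal tubule, 0 in T cells, 6 in B cells, 35 in the distal convoluted and connecting tubule, 64 in the thick ascending limb and 1 in monocytes. The relative test with the block called 561 in monocytes (0 without it), 30 in B cells (1 without it), 7 in the distal convoluted and connecting tubule (120 without it), 0 in the thick ascending limb (31 without it), and 0 in the proximal tubule and T cells with or without it. With the block no member was called, and mt-Atp8 in the proximal tubule was -0.093 in log2. Within equal numbers the mt-Co2 share difference in the proximal tubule was 2.79 and 0.596 points, and that of mt-Cytb was -3.41 and 1.28 points. With 2 mice in each group no exact permutation p under 0.333 was possible.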
